A study of Capra hircus with 21 samples.

Results

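Linker histones of the H1 family bind the nucleosome where DNA enters and leaves it and help to fold nucleosome arrays into compact chromatin. The genes described here are the 8 linker histone genes found by symbol among the 19040 genes of the table: H1FOO, H1F0, HIST1H1A, HIST1H1B, HIST1H1C, HIST1H1D, HIST1H1E and HIST1H1T. They were measured by RNA sequencing in goats (Capra hircus), in mature oocytes and in embryos, both taken after maturation or development in vivo. The embryos were at the 2-cell, the 4-cell, the 8-cell, the 16-cell, the morula or the blastocyst stage. No treatment, genotype, breed or age is used here to set the groups apart, and each of the 7 stages had 3 libraries lettered A to C, 21 in all. The labels do not say how many oocytes or embryos a library held or whether libraries came from separate animals, so p-values cover the spread of these samples alone, and that spread may be technical. In bulk libraries, fewer cells of a type and less RNA per cell cannot be told apart.

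In mammals the family divides by when and where its genes are used. H1FOO is the oocyte form, known in mice and cattle from the growing oocyte and the early embryo. H1F0 is a replacement form that is made outside S phase and is known from cells that have stopped dividing. HIST1H1A to HIST1H1E are the somatic forms of the large histone gene cluster, whose genes are normally transcribed when DNA is copied and whose mRNAs normally end in a stem loop and not in a poly(A) tail. HIST1H1T, in the same cluster, is known as the testis form of meiotic male germ cells.

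The 6 genes with HIST1H1 names lay within 910 kb on chromosome 23 in the coordinates of the table, whose genome build is not given in the sources used here. From low to high coordinate they were HIST1H1A (chromosome 23, 18070718 to 18071375, minus strand), HIST1H1C (18105504 to 18107335, minus strand), HIST1H1T (18138659 to 18139292, minus strand), HIST1H1E (18186058 to 18186718, plus strand), HIST1H1D (18248872 to 18249538, minus strand) and HIST1H1B (18979845 to 18980526, minus strand). H1FOO lay on chromosome 22 (56168867 to 56175214, minus strand) and H1F0 on chromosome 5 (108541998 to 108542583, plus strand). All 8 were annotated as protein coding. Levels are RPKM, reads scaled by gene length and by library size, and the length in the deposited values is the whole span from start to stop, introns included. The span of 6 of the genes was 585 to 681 bases and a multiple of 3, as a coding length would be. H1FOO spanned 6347 bases and HIST1H1C 1831 bases, so their RPKM are low for the same number of reads.

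The smallest value in the table, 0.01 RPKM, stands for no read. All 8 genes reached 1 RPKM in at least 3 libraries and so were among the 4253 genes tested. The libraries held 24.0 to 66.6 M reads as implied by the steps of the low values, and 3 reads of a somatic HIST1H1 gene or HIST1H1T amounted to at most 0.197 RPKM, which covers counting error only. Stages were checked by genes known for them: the oocyte growth factor GDF9 averaged 0.0527 ± 0.0125 RPKM in blastocysts and 63.2 ± 8.78 RPKM in oocytes, and the epithelial keratin KRT8 averaged 114 ± 39.3 RPKM in blastocysts and was listed at no read in oocytes (SD, n = 3 each). Of 5 lists of markers of other cells, summed levels in a library ran up to 6.68 RPKM for oviduct and uterine epithelium, 6.15 RPKM for cumulus and granulosa cells, 7.96 RPKM for fibroblasts, 3.12 RPKM for sperm and testis cells and 0.275 RPKM for blood cells.

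Libraries C of the 16-cell and morula stages stood apart from their stage mates. Across the 4253 genes, 16-cell C correlated with the 8-cell mean at r = 0.84, against 0.67 and 0.66 for 16-cell A and B. Morula C correlated with it at r = 0.70, against 0.49 and 0.50 for morula A and B. GDF9 stood at 57.6 RPKM in 16-cell C against 7.05 and 9.71 RPKM in 16-cell A and B. Within the 16-cell stage 5 of the 8 linker histone genes were highest in library C, and within the morula stage 7 were. The label of morula A says that its file of reverse reads was corrupt, and whether its values rest on forward reads alone is not given in the sources used here. Results that rest on these libraries are given with and without them. Libraries 16-cell C and morula C were singled out in these same data, so a lower p-value without them is not independent support.

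HIST1H1A had the highest RPKM of the family in every library from the oocyte to the 16-cell stage. It stood at 108, 95.4 and 114 RPKM in the 3 oocyte libraries, 320, 171 and 316 RPKM at the 2-cell stage, 194, 279 and 124 RPKM at the 4-cell stage and 226, 312 and 175 RPKM at the 8-cell stage. Its values were 78.4, 56.1 and 150 RPKM at the 16-cell stage, 3.29, 3.50 and 80.2 RPKM in morulae and 1.66, 2.33 and 1.52 RPKM in blastocysts. All 12 libraries up to the 8-cell stage were above the 9 later ones except 16-cell C, which lay above the oocytes and within the range of the 4-cell libraries, and morula C was the only morula library above 4 RPKM. By mean RPKM the gene ranked 80th of 19040 in oocytes, 37th at the 2-cell stage, 145th at the 16-cell stage and 1541st in blastocysts.

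H1FOO, the oocyte form, followed a like course at a lower level per length of span. Its values were 9.41, 8.58 and 5.18 RPKM in oocytes, 16.2, 9.99 and 22.3 RPKM in 2-cell embryos, 14.0, 9.69 and 10.4 RPKM at the 4-cell stage and 21, 19.0 and 16.1 RPKM at the 8-cell stage. At the 16-cell stage they were 2.79, 2.97 and 15.3 RPKM, in morulae 0.207, 0.410 and 8.33 RPKM and in blastocysts 0.01, 0.0238 and 0.0592 RPKM. The blastocyst values correspond to 0, 5 and 11 reads, against 3148, 2551 and 1776 reads in oocytes A, B and C. Both genes were thus lowest in blastocysts with no overlap with any other stage, and both were high in 16-cell C and morula C.

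Over the 21 libraries log2(RPKM + 1) of H1FOO and HIST1H1A had a Pearson r of 0.97, a description of libraries that share stage and depth. The ratio of HIST1H1A to H1FOO in RPKM ran from 8.71 (morula B) to 28.8 (4-cell B) in the 18 libraries before the blastocyst. In blastocysts it was 168 in library B and 30.7 in library C, where H1FOO rested on 5 and 11 reads, and it was not formed in library A, where H1FOO had no read. Spans of 657 bases for HIST1H1A and 6347 bases for H1FOO enter this ratio. In reads, HIST1H1A had 2941 to 4062 in oocytes and H1FOO 1776 to 3148. At the 8-cell stage the genes had 6152 to 9860 and 5467 to 7467 reads, and in morula C 3281 and 3287.

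**Figure D1:**
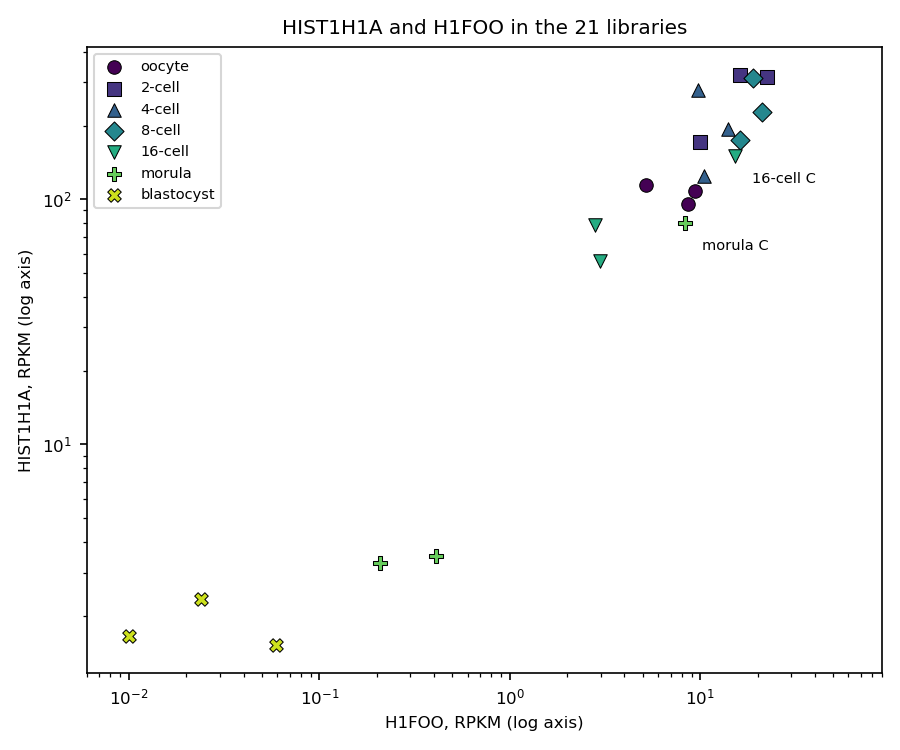
HIST1H1A (vertical axis) against H1FOO (horizontal axis), both in RPKM on log axes, 1 symbol per library and 1 symbol shape per stage; the leftmost blastocyst, at 0.01 RPKM, had no H1FOO read. Libraries up to the 8-cell stage cluster at the upper right, morula A and B and the blastocysts lie at the lower left, and morula C (80.2 and 8.33 RPKM) lies beside the oocytes.

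H1F0, the replacement form, was at 2.15 RPKM or more in every library through the morula stage. It stood at 7.63, 5.62 and 2.92 RPKM in oocytes, 7.32, 16.7 and 10.7 RPKM in 2-cell embryos, 8.10, 5.08 and 12.6 RPKM at the 4-cell stage, 7.59, 8.37 and 5.07 RPKM at the 8-cell stage and 4.68, 3.62 and 8.84 RPKM at the 16-cell stage. Morulae had 6.53, 2.15 and 29.7 RPKM and blastocysts 0.237, 0.01 and 0.301 RPKM, the last 3 from 6, 0 and 6 reads. Its highest stage mean, 12.8 ± 14.8 RPKM in morulae, rested on morula C, and the morula libraries overlapped those of all 5 earlier stages from the oocyte on. Only the blastocyst libraries lay apart from every other stage.

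HIST1H1D and HIST1H1E, somatic forms, were highest on average at the 2-cell stage. HIST1H1D had 7.33, 6.28 and 8.39 RPKM in oocytes, 23.5, 27.1 and 33.3 RPKM in 2-cell embryos, 10.9, 16.8 and 19.9 RPKM at the 4-cell stage and 8.25, 13.9 and 19.0 RPKM at the 8-cell stage. It then had 2.68, 3.18 and 12.4 RPKM at the 16-cell stage, 1.46, 0.510 and 2.88 RPKM in morulae and 1.47, 0.642 and 1.67 RPKM in blastocysts. The 2-cell libraries of HIST1H1D overlapped no other stage.

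HIST1H1E had 3.69, 3.82 and 1.69 RPKM in oocytes, 14.9, 7.11 and 15.6 RPKM in 2-cell embryos, 5.24, 12.9 and 3.55 RPKM at the 4-cell stage and 5.59, 11 and 12.0 RPKM at the 8-cell stage. Its 16-cell libraries had 5.25, 5.72 and 6.78 RPKM, its morula libraries 3.69, 1.21 and 6.77 RPKM and its blastocyst libraries 2.02, 0.648 and 1.04 RPKM. The 2-cell libraries of HIST1H1E overlapped those of the 4-cell and 8-cell stages.

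HIST1H1C, HIST1H1T and HIST1H1B averaged under 1 RPKM in oocytes and had their highest means at the 8-cell or 16-cell stage. HIST1H1C, a somatic form, had 0.642, 0.615 and 0.515 RPKM in oocytes, 1.71, 1.75 and 2.5 RPKM in 2-cell embryos, 1.21, 0.987 and 2.00 RPKM at the 4-cell stage, 2.58, 6.41 and 7.61 RPKM at the 8-cell stage and 4.55, 11.9 and 6.04 RPKM at the 16-cell stage. Morulae had 1.89, 1.01 and 3.71 RPKM and blastocysts 1.05, 0.365 and 0.630 RPKM. The 8-cell and 16-cell libraries overlapped each other and no other stage overlapped the 16-cell libraries.

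HIST1H1T, the form known from male germ cells, had 124, 116 and 174 reads at the 8-cell stage, against 0, 1 and 0 reads in oocytes. In RPKM it stood at 0.0368, 0.553 and 0.247 at the 2-cell stage, 1.71, 0.397 and 2.62 at the 4-cell stage, 3.51, 3.82 and 5.16 at the 8-cell stage and 2.60, 2.47 and 2.58 at the 16-cell stage. Morulae had 0.489, 0.339 and 1.30 RPKM and blastocysts 0.0449, 0.426 and 0.01 RPKM, with 1, 15 and 0 reads. The 8-cell libraries overlapped no other stage. The 5 sperm and testis markers found of 9 listed (ODF1, AKAP4, ACRV1, SPACA1 and TSSK6) summed to 1.08 to 1.40 RPKM at the 8-cell stage, against 1.01 to 1.38 RPKM in oocytes, nearly all of it from ACRV1.

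HIST1H1B, a somatic form at the far end of the cluster, had 0.01, 0.01 and 0.0643 RPKM in oocytes, 0.01, 0.01 and 0.0982 RPKM in 2-cell embryos and 0.0707, 0.392 and 2.03 RPKM at the 4-cell stage. It had 0.220, 0.957 and 1.74 RPKM at the 8-cell stage, 0.727, 3.48 and 2.54 RPKM at the 16-cell stage, 2.52, 0.499 and 2.42 RPKM in morulae and 2.41, 0.938 and 2.30 RPKM in blastocysts. The libraries from the 4-cell stage to the blastocyst overlapped, and the blastocyst libraries rested on 74, 36 and 55 reads. Its oocyte and 2-cell libraries all lay under 0.1 RPKM, below every blastocyst library.

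Genes of this family are alike in sequence, and how reads that match several genes were counted is not given in the sources used here. In the oocyte libraries, in which HIST1H1A had 2941 to 4062 reads, HIST1H1B had 0 to 2 reads and HIST1H1T 0 to 1 read. Sharing of reads among HIST1H1C, HIST1H1D and HIST1H1E was not tested.

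**Figure D2:**
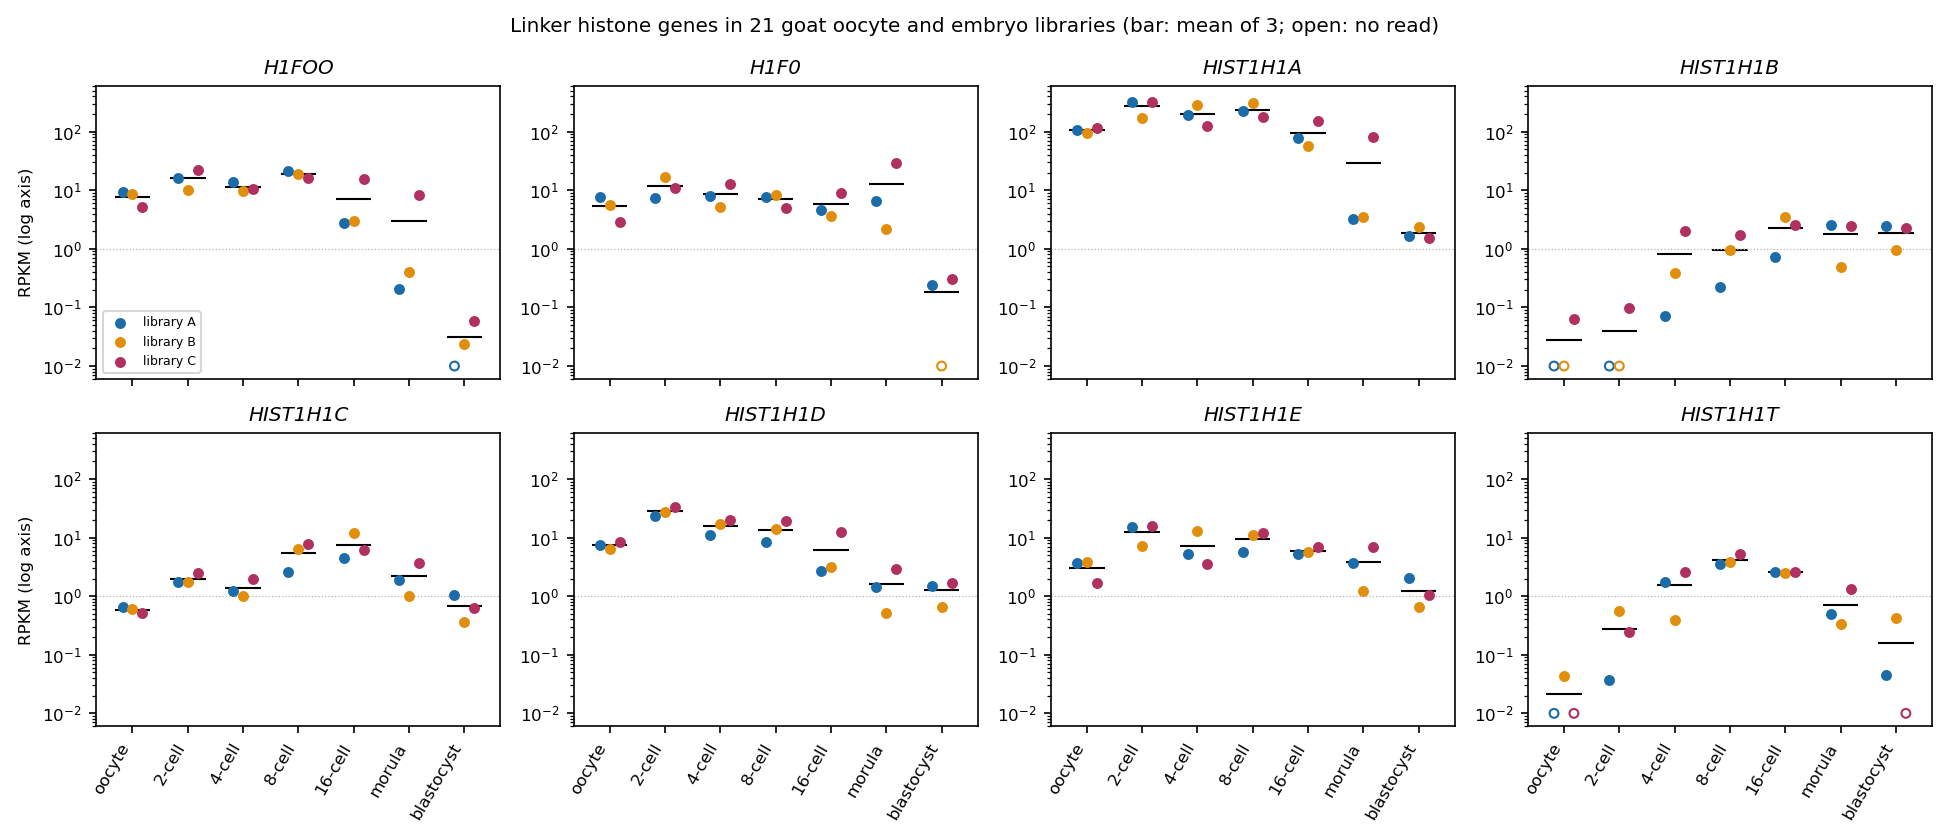
Level of each linker histone gene in RPKM (vertical log axis) in the 21 libraries by stage, with points for the libraries, open points for libraries without a read, bars for the mean of 3 and a dotted line at 1 RPKM. HIST1H1A lies above the other genes through the 16-cell stage (56.1 to 320 RPKM), H1FOO and H1F0 are at 0.301 RPKM or less in blastocysts, and HIST1H1B stays at 0.938 RPKM or more there.

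The make-up of the family changed between the 16-cell stage and the blastocyst. HIST1H1A made up 62.8 to 85.9% of the summed RPKM of the 8 genes in every library up to the 16-cell stage, 16.4 to 59.3% in morulae and 18.7 to 43.8% in blastocysts. H1F0 held 22.0 to 32.6% of the sum in morulae, against 4.04 to 4.60% at the 16-cell stage. HIST1H1B held 17.5 to 30.7% in blastocysts, against at most 0.0408% in oocytes. HIST1H1D and HIST1H1E held 11.9 to 22.3% and 12.0 to 22.8% in blastocysts. These are shares of RPKM per span, so H1FOO and HIST1H1C count for less than their reads.

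The order of genes given here is by mean RPKM per span. HIST1H1A stood above the next gene with no overlap of libraries at every stage from the oocyte to the 16-cell stage. Behind it in oocytes H1FOO, HIST1H1D, H1F0 and HIST1H1E each overlapped the next in order, and HIST1H1C lay below them without overlap. At the 2-cell stage HIST1H1D was the next gene and stood above H1FOO without overlap in RPKM. In reads the order was the reverse, with 3868 to 9444 for H1FOO and 921 to 1477 for HIST1H1D. At the 8-cell stage H1FOO, HIST1H1D, HIST1H1E, H1F0, HIST1H1C and HIST1H1T followed HIST1H1A, each overlapping the next. In blastocysts HIST1H1B, HIST1H1A, HIST1H1D, HIST1H1E and HIST1H1C each overlapped the next, while HIST1H1A lay above HIST1H1C without overlap, and H1F0 lay below all of these.

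**Figure D3:**
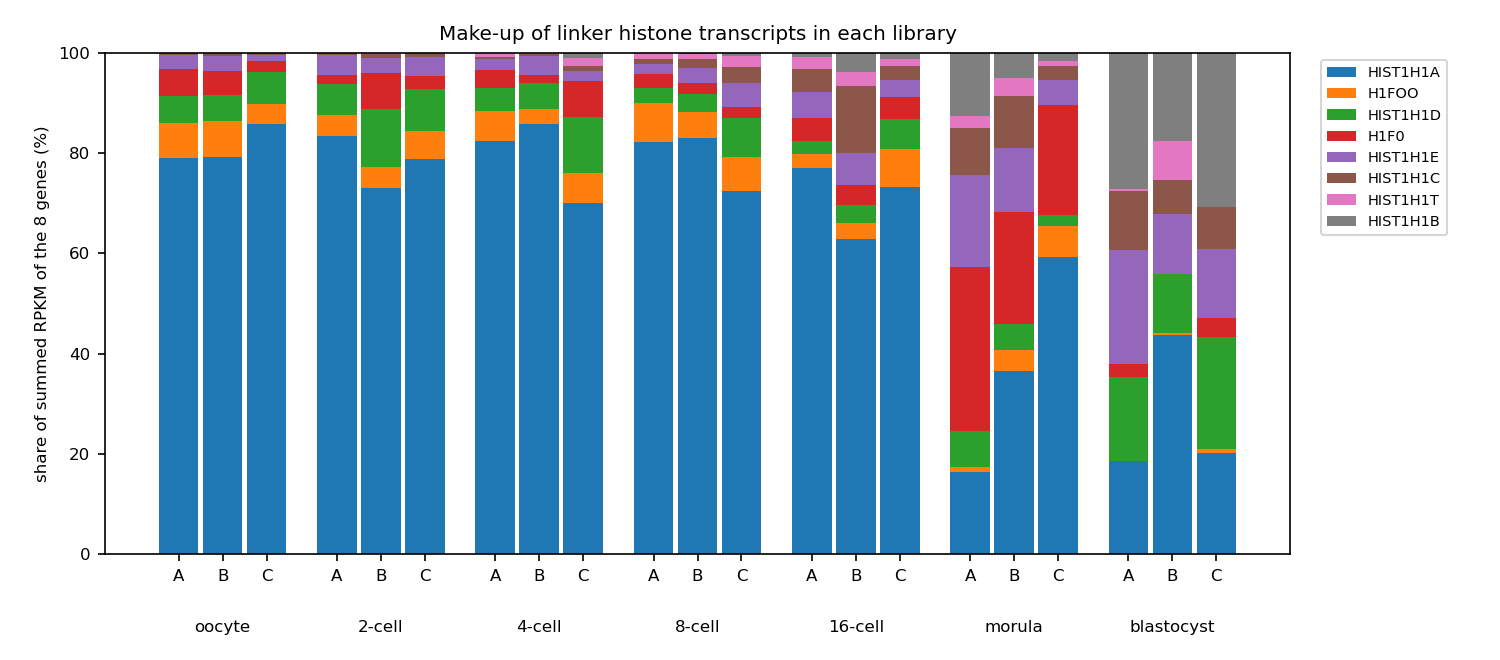
Share of each gene in the summed RPKM of the 8 linker histone genes (vertical axis, %) in each of the 21 libraries, A to C within each stage. HIST1H1A fills 62.8 to 85.9% of each bar up to the 16-cell stage, and HIST1H1B fills 17.5 to 30.7% of the blastocyst bars.

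The summed level of the 8 genes averaged 130 ± 8.71 RPKM in oocytes and then 339 ± 91.7 RPKM at the 2-cell stage, 246 ± 74.3 RPKM at the 4-cell stage, 297 ± 69.7 RPKM at the 8-cell stage, 132 ± 63.0 RPKM at the 16-cell stage, 54.9 ± 69.8 RPKM in morulae and 7.19 ± 1.77 RPKM in blastocysts (SD, n = 3 each). The morula libraries stood at 20.0, 9.54 and 135 RPKM, so that mean rested on library C. The 16-cell mean rested on library C as well, with 102, 89.4 and 204 RPKM in libraries A, B and C. Libraries 16-cell A and B lay below all oocyte libraries, which ran from 120 to 137 RPKM. Without HIST1H1A the sum of the other 7 genes was 24.1 ± 5.02 RPKM in oocytes, 70.5 ± 12.4 RPKM in 2-cell embryos and 5.36 ± 2.15 RPKM in blastocysts. The blastocyst sum was 0.0553 of the oocyte sum in RPKM and 0.109 of it after median-ratio scaling, under which the median gene stood at a log2 fold change of 0.11 between these stages, against -0.33 in RPKM. Blastocysts A, B and C had scaling factors of 0.507, 0.275 and 0.827, with 24.4, 24.9 and 40.5% of reads in genes of the table. Their sums were 8.81, 5.31 and 7.46 RPKM, and 17.4, 19.3 and 9.02 after the scaling. The order of these libraries thus depended on the scale.

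**Figure D4:**
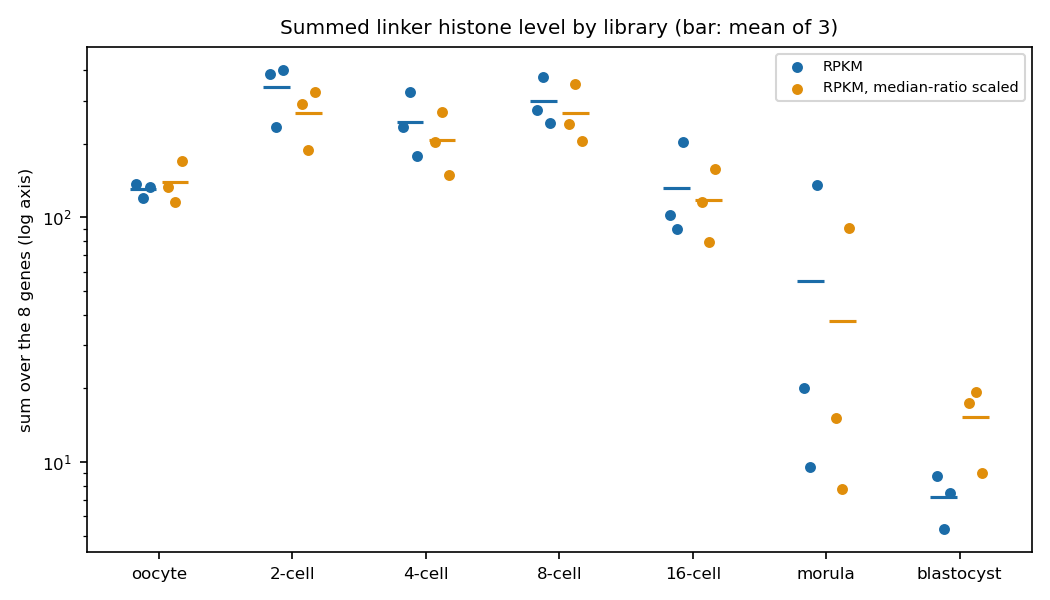
Sum of the 8 linker histone genes in each library by stage (vertical log axis), in RPKM and in RPKM after median-ratio scaling, with bars for the mean of 3. Under both scales the 3 blastocyst libraries lie at 19.3 or less and all oocyte to 8-cell libraries at 116 or more.

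The comparison of 2-cell embryos with oocytes concerns the time around fertilization and the first division. HIST1H1D rose by 1.79 (SE 0.44, adjusted p = 0.0127) and HIST1H1E by 1.71 (SE 0.46, adjusted p = 0.0200) on the log2(RPKM + 1) scale of limma, with p-values adjusted by Benjamini and Hochberg over the genes tested. A gene was called at an adjusted p below 0.05 and an absolute log2 fold change of at least 1, on a scale that understates changes of low genes. Thus 2 of the 8 genes were called higher and 0 lower, against 4.37% of all genes higher and 0.400% lower. The estimates of all 8 were positive, with a median of 0.96 against 0.19 over all genes; HIST1H1B had a negative estimate after quantile normalization and median-ratio scaling, which left 7 positive. HIST1H1A averaged 269 ± 84.9 RPKM at the 2-cell stage and 106 ± 9.65 RPKM in oocytes without overlap of libraries, and its change of 1.28 (SE 0.75, adjusted p = 0.298) did not pass. It passed with 16-cell C and morula C left out of the shared estimate of spread (adjusted p = 0.0157) and with morula C alone left out (0.0347). HIST1H1D lost its call without 2-cell C (adjusted p = 0.0596). HIST1H1E lost its call without oocyte C (0.118), 2-cell A (0.0745) or 2-cell C (0.0940) and after median-ratio scaling (0.0616). Of genes called on RPKM 91.6% were higher, and 47.1 to 96.7% under 3 other scalings. The background moved with the scaling. On reads scaled by library size without the span 2 of the 8 genes were called higher, against 1451 of 10384 genes tested. The median log2 fold changes were then 1.09 for the 8 genes and 0.46 over all genes.

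In neither step from the 2-cell to the 8-cell stage was a gene of the family called, and few of all genes were. In the comparison of 4-cell with 2-cell embryos 0 of the 8 genes were called with limma, against 0% of all genes (161 of 4253 at an unadjusted p under 0.05), with 1 of the 8 at an unadjusted p under 0.05, HIST1H1T (log2 fold change 0.92, adjusted p = 0.761). HIST1H1D averaged 15.8 ± 4.57 RPKM at the 4-cell stage and 28.0 ± 4.97 RPKM at the 2-cell stage without overlap of libraries (log2 fold change -0.81, adjusted p = 1.0). In the comparison of 8-cell with 4-cell embryos 0 of the 8 were called, against 0.682% of all genes, and 2 had an unadjusted p under 0.05. These were HIST1H1C, at 5.53 ± 2.63 RPKM in 8-cell and 1.40 ± 0.533 RPKM in 4-cell embryos (log2 fold change 1.37, SE 0.35, adjusted p = 0.0641), and HIST1H1T, at 4.16 ± 0.873 RPKM in 8-cell and 1.57 ± 1.12 RPKM in 4-cell embryos (1.10, SE 0.27, adjusted p = 0.0555). Libraries of the 2 stages did not overlap for either gene. With 16-cell C and morula C left out both passed (adjusted p = 0.0280 and 0.0261). HIST1H1C also passed without 8-cell A (0.0205), 16-cell B (0.0465), morula B (0.0495) or morula C (0.0272), and HIST1H1T without 4-cell C (0.0145), morula B (0.0495) or morula C (0.0251). With all libraries kept HIST1H1C passed after quantile normalization (0.0187), median-ratio scaling (0.0420) or array weights (0.00466), and HIST1H1T after quantile normalization (0.0360). Of genes called on RPKM 86.2% were higher, and 59.1 to 87.8% under other scalings.

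Set directly against oocytes, 8-cell embryos had higher RPKM of 3 genes of the family. RPKM is relative to the reads of a library, whose preparation is not given. Amounts of transcript per embryo were not measured, here or in the comparison of 2-cell embryos. HIST1H1T rose by 2.32 on the log2(RPKM + 1) scale (SE 0.27, limma adjusted p = 1.80e-05). HIST1H1C rose by 1.94 (SE 0.35, limma adjusted p = 0.000759), at 5.53 ± 2.63 RPKM in 8-cell embryos and 0.591 ± 0.0669 RPKM in oocytes. HIST1H1E rose by 1.36 (SE 0.46, limma adjusted p = 0.0397), at 9.53 ± 3.44 RPKM in 8-cell embryos and 3.07 ± 1.19 RPKM in oocytes. Libraries did not overlap for any of the 3 genes. Thus 3 of the 8 genes were called higher and 0 lower, against 8.02% of all genes higher and 3.48% lower, and all 8 estimates were positive on RPKM and under each of 3 other scalings (median 1.16 against 0.15 over all genes on RPKM). HIST1H1E lost its call without oocyte A (adjusted p = 0.0636), oocyte B (0.0525), oocyte C (0.173), 8-cell B (0.132) or 8-cell C (0.131). With all libraries kept it was lost with a pseudocount of 0.1 (0.0557) or 5 (log2 fold change 0.83), with no filter (0.0731) and after median-ratio scaling (0.0588). HIST1H1C and HIST1H1T lost their calls with a pseudocount of 5 alone (0.88 and 0.86). H1FOO (log2 fold change 1.20, adjusted p = 0.161) and HIST1H1A (1.12, adjusted p = 0.311) passed with 16-cell C and morula C left out (0.00270 and 0.0199) and with morula C alone left out (both 0.0419). Of genes called on RPKM 69.7% were higher, and 46.4 to 85.9% under other scalings. Without the span 3 of the 8 genes were called higher, against 1898 of 10384 genes tested. The medians were then 1.19 for the 8 genes and 0.41 over all genes.

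In 16-cell against 8-cell embryos 2 genes of the family fell. H1FOO fell by 1.65 on the log2(RPKM + 1) scale (SE 0.60, limma adjusted p = 0.0249), at 7.01 ± 7.15 RPKM in 16-cell and 18.7 ± 2.46 RPKM in 8-cell embryos. HIST1H1D fell by 1.25 (SE 0.44, limma adjusted p = 0.0220), at 6.10 ± 5.50 RPKM in 16-cell and 13.7 ± 5.40 RPKM in 8-cell embryos. Thus 0 of the 8 genes were called higher and 2 lower, against 19.4% of all genes higher and 15.9% lower, a share of the family near the background. HIST1H1A averaged 94.7 ± 48.9 RPKM in 16-cell and 238 ± 69.3 RPKM in 8-cell embryos without overlap (log2 fold change -1.40, SE 0.75, adjusted p = 0.117). With 16-cell C and morula C left out the changes of H1FOO, HIST1H1D and HIST1H1A were -2.34, -1.84 and -1.79 (adjusted p = 5.35e-06, 0.000236 and 0.000679), and with morula C alone left out HIST1H1A passed at 0.00515; it also passed after quantile normalization (0.0162). H1FOO lost its call without 8-cell A (adjusted p = 0.0673), 8-cell B (0.0570), 16-cell A (0.119) or 16-cell B (0.111), and with all libraries kept at a pseudocount of 0.1 (0.0601), with no filter (0.0656) or without the span (0.0506). HIST1H1D lost its call without 8-cell B (0.0581), 8-cell C (0.0996), 16-cell A (0.126) or 16-cell B (0.104), and at a pseudocount of 5 (log2 fold change -0.82). HIST1H1B and HIST1H1C had positive estimates of 0.69 and 0.38, and HIST1H1B passed without 16-cell A (1.09, adjusted p = 0.0370). Of the 8 maternal oocyte genes tested of 11 listed 6 fell, and of genes called on RPKM 55.1% were higher, or 33.5 to 57.2% under other scalings.

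In morulae against 16-cell embryos 4 genes of the family fell. HIST1H1A fell by 2.92 on the log2(RPKM + 1) scale (SE 0.75, limma adjusted p = 0.00797), at 29.0 ± 44.3 RPKM in morulae and 94.7 ± 48.9 RPKM in 16-cell embryos. HIST1H1C fell by 1.40 (SE 0.35, limma adjusted p = 0.00700), at 2.20 ± 1.38 RPKM in morulae and 7.49 ± 3.87 RPKM in 16-cell embryos. HIST1H1T fell by 1.10 (SE 0.27, limma adjusted p = 0.00616), at 0.711 ± 0.519 RPKM in morulae and 2.55 ± 0.0698 RPKM in 16-cell embryos. HIST1H1D fell by 1.28 (SE 0.44, limma adjusted p = 0.0401), at 1.62 ± 1.19 RPKM in morulae and 6.10 ± 5.50 RPKM in 16-cell embryos. Libraries did not overlap for HIST1H1C and HIST1H1T, and overlapped for HIST1H1A and HIST1H1D. Thus 0 of the 8 genes were called higher and 4 lower, against 11.4% of all genes higher and 4.66% lower, with a median of -1.19 against 0.01 over all genes.

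The morula calls depended in part on single libraries and on the processing. With 16-cell C and morula C left out, HIST1H1A fell by 3.94, HIST1H1C by 1.81, HIST1H1T by 1.32 and HIST1H1D by 1.03 (adjusted p = 6.60e-06, 0.00248, 0.00422 and 0.0477). H1FOO, not called at first (log2 fold change -1.32, adjusted p = 0.118), passed there (-1.57, adjusted p = 0.00153) and without morula C alone (-2.26, adjusted p = 0.00109). HIST1H1A lost its call without morula A (adjusted p = 0.0663) or morula B (0.0580). HIST1H1D lost its call without oocyte A (0.0504), 8-cell B (0.0501), 16-cell C (0.242), morula A (0.103) or morula B (0.198), and HIST1H1T without morula B, where its change was -0.94. With all libraries kept HIST1H1D lost its call at a pseudocount of 5 (0.102), with no filter (0.106) or without the span (0.0605). HIST1H1T lost it at a pseudocount of 5 (log2 fold change -0.41), without the span (-0.88) and after quantile normalization, and HIST1H1C at a pseudocount of 5 (-0.77). H1F0 was the 1 gene with a positive estimate (0.50, SE 0.57, adjusted p = 0.559). Of genes called on RPKM 71.0% were higher, and 53.3 to 58.5% under other scalings. Without the span 2 of the 8 genes were called lower, against 788 of 10384 genes tested.

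In blastocysts against morulae H1F0 fell by 2.94 on the log2(RPKM + 1) scale (SE 0.57, limma adjusted p = 0.000417), at 0.183 ± 0.153 RPKM in blastocysts and 12.8 ± 14.8 RPKM in morulae. The fall of H1F0 was called under all 31 alternatives, and was 2.05 with 16-cell C and morula C left out (adjusted p = 0.00147). HIST1H1A fell by 2.04 (SE 0.75, limma adjusted p = 0.0329), at 1.84 ± 0.435 RPKM in blastocysts and 29.0 ± 44.3 RPKM in morulae. That call rested on morula C: without it the change was -0.64 (adjusted p = 0.281). The call of HIST1H1A was also lost without blastocyst A (0.0729), B (0.0597) or C (0.0673), with a pseudocount of 5 (0.0910), with no filter (0.0972), and after quantile normalization (0.265) or median-ratio scaling (0.366). Thus 0 of the 8 genes were called higher and 2 lower, against 3.93% of all genes higher and 25.3% lower, a share of the family near the background.

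HIST1H1B averaged 1.88 ± 0.821 RPKM in blastocysts and 1.81 ± 1.14 RPKM in morulae (log2 fold change 0.09, 95% interval -0.75 to 0.93, adjusted p = 0.867). HIST1H1D averaged 1.26 ± 0.545 RPKM in blastocysts and 1.62 ± 1.19 RPKM in morulae (-0.14, 95% interval -1.06 to 0.79, adjusted p = 0.819). These intervals do not show that the levels were alike. The median over all genes was -0.48 on RPKM and 0.07 after median-ratio scaling; relative to that median HIST1H1B stood at 0.57 on RPKM, and it was called higher after median-ratio scaling (1.05, adjusted p = 0.0198). H1FOO (-1.29, adjusted p = 0.0891) passed with a pseudocount of 0.1 (0.00427), without the span (0.00814) and without morula A (0.0266) or morula B (0.0433). HIST1H1C (-0.86, adjusted p = 0.0530) passed with a pseudocount of 0.1 (0.0176), without the span (0.0409) and without morula B (0.0186) or blastocyst A (0.0497). HIST1H1E (-1.0, adjusted p = 0.0873) passed with a pseudocount of 0.1 (0.0493) and without morula B (0.0168), and HIST1H1T (-0.54, adjusted p = 0.112) with a pseudocount of 0.1 (0.0221). Of genes called on RPKM 13.4% were higher, and 21.6 to 69.7% under other scalings.

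Over the whole course, blastocysts differed from oocytes in 5 of the 8 genes. HIST1H1A fell by 5.24 on the log2(RPKM + 1) scale (SE 0.75, limma adjusted p = 5.40e-06), at 1.84 ± 0.435 RPKM in blastocysts and 106 ± 9.65 RPKM in oocytes. H1FOO fell by 3.05 (SE 0.60, limma adjusted p = 0.000188), at 0.0310 ± 0.0254 RPKM in blastocysts and 7.73 ± 2.24 RPKM in oocytes. H1F0 fell by 2.37 (SE 0.57, limma adjusted p = 0.00114), at 0.183 ± 0.153 RPKM in blastocysts and 5.39 ± 2.36 RPKM in oocytes. HIST1H1D fell by 1.91 (SE 0.44, limma adjusted p = 0.000853), at 1.26 ± 0.545 RPKM in blastocysts and 7.33 ± 1.05 RPKM in oocytes.

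HIST1H1B rose by 1.44 (SE 0.40, limma adjusted p = 0.00365), at 1.88 ± 0.821 RPKM in blastocysts and 0.0281 ± 0.0313 RPKM in oocytes, where 2 reads in all were found. Libraries of blastocysts and oocytes did not overlap for any of these 5 genes. Thus 1 of the 8 genes was called higher and 4 lower, against 19.8% of all genes higher and 28.5% lower, with a median of -1.38 against -0.33 over all genes. HIST1H1C (0.06, 95% interval -0.67 to 0.79), HIST1H1E (-0.86, -1.83 to 0.11) and HIST1H1T (0.17, -0.40 to 0.73) overlapped between the 2 stages and were not called. Markers of cumulus and granulosa cells (8 of 10 found) summed to 0.12 to 0.250 RPKM in blastocysts and 3.37 to 6.15 RPKM in oocytes, and markers of fibroblasts (4 of 5 found) to 0.0465 to 0.0878 RPKM in blastocysts and 3.45 to 4.69 RPKM in oocytes. FSHR and AMH, genes of granulosa cells, had no read in any of the 3 oocyte libraries, where STAR stood at 3.09 to 5.86 RPKM, and the part of other cells in these results was not tested. A pseudocount of 5 ended the calls of H1F0 (-0.98), HIST1H1D (-0.98) and HIST1H1B (0.45). No single library changed any of these calls, and the count stayed at 1 higher and 4 lower under 3 other scalings, where 36.2 to 59.0% of all genes called were higher, against 41.0% on RPKM.

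**Figure D5:**
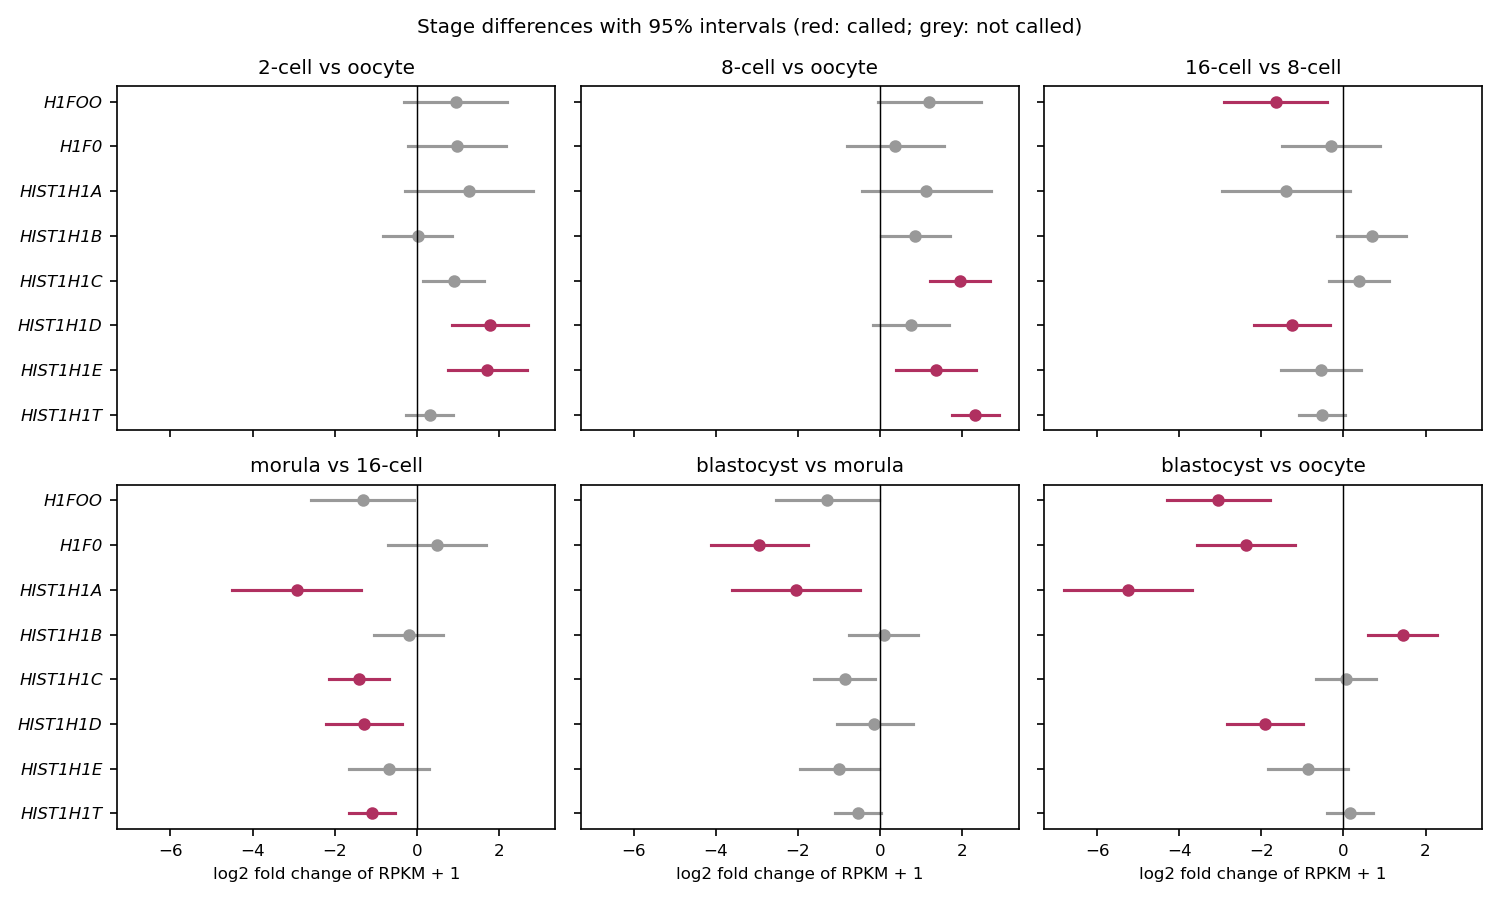
Log2 fold changes of RPKM + 1 with 95% intervals (horizontal axis) for the 8 linker histone genes in 6 comparisons, later stage over earlier stage, with called genes in red and others in grey. The called genes lie right of 0 in the 2-cell and 8-cell comparisons with oocytes, left of 0 in the comparisons of later stages, and on both sides in blastocysts against oocytes, where HIST1H1B stands at 1.44 and HIST1H1A at -5.24.

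The genes with the most similar pattern were found by Pearson correlation of log2(RPKM + 1) over the 21 libraries among 2758 tested genes that carry a symbol and are not members. H1FOO was nearest to PRC1 (r = 0.99), ARF5 and DIRAS2 (both 0.98), and HIST1H1A to LINGO2, BMP15 and PAIP1 (each 0.98). BMP15, an oocyte-secreted growth factor, averaged 43.4 RPKM in oocytes, 96.0 RPKM at the 2-cell stage, 84.5 RPKM at the 8-cell stage and 0.0574 RPKM in blastocysts. A higher mean at these stages than in oocytes was thus not particular to the family. Of the 8 maternal oocyte genes tested 0 were called higher and 0 lower in 2-cell embryos against oocytes. Their median log2 fold change was 0.43, against 0.19 over all genes. HIST1H1D was nearest to CD164L2 (0.97), PCBD1 and BTBD9 (both 0.95), H1F0 to FOXN2 (0.92), CNBP (0.91) and NKAPD1 (0.90), and HIST1H1E to GRPEL2 (0.87) and ARF1 (0.86).

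HIST1H1C and HIST1H1T, which correlated with each other at 0.80, shared SUPT4H1, a subunit of a transcription elongation factor, among their nearest genes. For HIST1H1C these were ELOA (0.93), SUPT4H1 and LENG1 (both 0.90), and for HIST1H1T SUPT4H1 (0.84), BIRC2 (0.83) and CDKN1C (0.82). SUPT4H1 averaged 0.0127 RPKM in oocytes, 0.0653 RPKM at the 4-cell stage, 1.89 RPKM at the 8-cell stage and 0.0291 RPKM in blastocysts. HIST1H1B was nearest to C11orf71 (0.83), MGAT2 and NDUFA2 (both 0.78) and correlated negatively with HIST1H1A (-0.46), H1FOO (-0.42) and HIST1H1D (-0.42). These are descriptions of 21 libraries from 7 stages and say nothing of shared control.

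Core histones, around which DNA is wound, were read from lists chosen with earlier results of these data known. Of 11 replication-dependent core histone genes tested of 13 in the table, 3 rose and 0 fell in 2-cell embryos against oocytes, 4 fell and 0 rose in morulae against 16-cell embryos, and 3 rose and 4 fell in blastocysts against oocytes. Of all genes 4.37% were higher and 0.400% lower in the comparison of 2-cell embryos, 11.4% and 4.66% in that of morulae and 19.8% and 28.5% in that of blastocysts, so the list's blastocyst counts were near the background. The list's median log2 fold changes were 1.06, -1.01 and -0.03 in these comparisons, against 0.19, 0.01 and -0.33 over all genes. Of the 2-cell calls HIST2H2AB held under 0 of 3 other scalings, HIST2H2BF under 2 and HIST1H2BA under 3. Of the morula calls HIST2H2AB held under 1 of 3, HIST1H2BA and HIST2H2AC under 3, and HIST1H2BJ under the 2 in which it was tested. HIST1H2BA, a histone H2B form known from the testis and, in mice, from the oocyte, rose by 2.00 in 2-cell embryos against oocytes (limma adjusted p = 0.0136), at 76.4 ± 35.7 and 17.7 ± 5.01 RPKM. It fell by 3.59 in blastocysts against oocytes (limma adjusted p = 3.98e-06), at 0.523 ± 0.237 and 17.7 ± 5.01 RPKM. HIST2H2AC, a histone H2A gene, took another course and rose by 1.73 in blastocysts (14.7 ± 6.92 RPKM) against oocytes (3.44 ± 0.868 RPKM), with a limma adjusted p of 0.00552.

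Replacement core histones, which enter chromatin outside S phase, were 4 tested of 10 listed. In 16-cell against 8-cell embryos 2 rose and 0 fell, against 19.4% of all genes higher and 15.9% lower (list median 1.97 against -0.14 over all genes). In blastocysts against oocytes 3 rose and 1 fell, against 19.8% of all genes higher and 28.5% lower (list median 2.76 against -0.33). H2AFZ, the H2A.Z gene, averaged 97.6 ± 54.9 RPKM in blastocysts and 1.18 ± 0.709 RPKM in oocytes (log2 fold change 5.40, SE 0.54, limma adjusted p = 6.88e-08), while H1F0, the replacement linker histone, fell between the same stages. H2AFX fell by 2.05 (SE 0.48, limma adjusted p = 0.000927), at 0.345 ± 0.203 RPKM in blastocysts and 4.80 ± 2.25 RPKM in oocytes. The rise of H2AFZ was not steady: it averaged 814 ± 427 RPKM at the 16-cell stage and 439 ± 174 RPKM in morulae. In blastocysts against morulae H2AFZ fell by 2.23 (SE 0.54, limma adjusted p = 0.00253), and H1F0 fell in that comparison too. There 1 gene of the list rose and 2 fell, against 3.93% of all genes higher and 25.3% lower.

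Genes that process histone mRNA or drive its transcription were 13 tested of 25 listed, and in blastocysts against oocytes 0 rose and 5 fell, against 19.8% of all genes higher and 28.5% lower (list median -0.63 against -0.33 over all genes). SLBP, which binds the stem loop at the end of replication-dependent histone mRNAs, fell by 1.76 (SE 0.29, limma adjusted p = 3.17e-05), at 2.37 ± 0.319 RPKM in blastocysts and 10.4 ± 0.758 RPKM in oocytes. CASP8AP2 fell by 2.75 (SE 0.46, limma adjusted p = 3.12e-05), and LSM10 and LSM11, subunits of the U7 particle that takes part in cutting these mRNAs, by 2.31 and 1.43 (limma adjusted p = 1.46e-05 and 2.24e-05). In 16-cell against 8-cell embryos 2 rose and 4 fell, against 19.4% of all genes higher and 15.9% lower.

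Chaperones of H1 and core histones were 8 tested of 27 listed, and in blastocysts against oocytes 0 rose and 4 fell, against 19.8% of all genes higher and 28.5% lower (list median -0.94 against -0.33). NASP, a chaperone that binds H1, fell by 1.08 (SE 0.31, limma adjusted p = 0.00454), at 2.26 ± 1.44 RPKM in blastocysts and 5.52 ± 0.387 RPKM in oocytes, and kept its call under 1 of 3 other scalings. NPM2, the oocyte nucleoplasmin, was listed at no read in all 3 blastocyst libraries and averaged 5.92 ± 1.83 RPKM in oocytes. HMG proteins, which compete with H1 for linker DNA, were 3 tested of 12 listed. In morulae against 16-cell embryos 1 rose and 1 fell, against 11.4% of all genes higher and 4.66% lower. HMGB1 averaged 296 ± 72.1 RPKM in morulae and 87.4 ± 31.3 RPKM in 16-cell embryos (log2 fold change 1.78, SE 0.46, limma adjusted p = 0.00814). HMGN4 averaged 1.61 ± 0.887 RPKM in morulae and 5.19 ± 2.32 RPKM in 16-cell embryos (log2 fold change -1.24, SE 0.29, limma adjusted p = 0.00413). The directions given for genes of these lists held under all other scalings in which the gene was tested.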

How the data were processed

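The authors deposited 1 table of RPKM values with a column per library. FastQC, STAR 2.5.3a and Partek are named, per the submitters' processing notes, without role or order. Genome build, strandedness, library preparation and the counting of reads that match several genes are each not given in the sources used here. Checked on the values, the deposited RPKM hold 0.01 where no read was counted, and reads are scaled by the whole span of a gene: per library, 95.6 to 97.4% of the low values came out as whole reads, within 0.05 of a read. Read counts printed here come from these steps, and the total depth was 24.0 to 66.6 M reads.

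The design had allowed for several units, of which RPKM applied. The 4253 genes that reached 1 RPKM in 3 or more libraries entered limma 3.58.1 (trend, robust; R 4.3.3) as log2(RPKM + 1), in 1 model of 7 stages and 21 libraries, two-sided, with Benjamini-Hochberg adjustment over all genes tested. Genes were called at an adjusted p below 0.05 and an absolute log2 fold change of at least 1. The fit was tested on simulated data. Software was matplotlib 3.10.9, pandas 2.3.3 and numpy 2.4.6 under Python 3.11.15. The genes, lists and tests were chosen with earlier results of these data known. Named were the 8 genes, up to 4 called genes of a list with the largest changes in a comparison, and the 3 genes most correlated with each member. Not every gene that this rule selects is reported here. No sequence is printed, since none was used here. There were 31 alternatives: 2 pseudocounts, 2 filters, 3 scalings, array weights, a replicate block, 21 single libraries left out, and 16-cell C with morula C left out.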

Additional observations from a re-analysis of the deposited data

How the results depend on the processing

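Of 64 pairs of gene and comparison 18 were called; 3 of them held under all 31 alternatives (H1F0 in blastocysts against morulae, and H1FOO and HIST1H1A in blastocysts against oocytes), 15 other pairs were called only under an alternative, and 31 were called under none. Counts of called genes moved as follows; the cause was not tested. In 2-cell against oocyte the count was 2, 1 after median-ratio scaling and 0 to 3 without 1 library. In 4-cell against 2-cell it was 0, and 1 with array weights. In 8-cell against 4-cell it was 0, 2 after quantile normalization, 1 after median-ratio scaling, 1 with array weights, 2 with 16-cell C and morula C left out, and 0 to 2 without 1 library. In 16-cell against 8-cell it was 2, 1 with pseudocounts of 0.1 or 5, 1 with no filter, 1 on reads scaled by library size without the span, and 0 to 3 without 1 library. In morula against 16-cell it was 4, 1 with a pseudocount of 5, 2 without the span, and 1 to 5 without 1 library. In blastocyst against morula it was 2, 6 with a pseudocount of 0.1, 1 with 5, 1 with no filter, 4 without the span, 1 after quantile normalization, 1 with the 2 C libraries left out, and 1 to 5 without 1 library. In 8-cell against oocyte it was 3, 0 with a pseudocount of 5, 5 with array weights, 5 with the 2 C libraries left out, and 2 to 5 without 1 library. In blastocyst against oocyte it was 5, and 2 with a pseudocount of 5. The summed blastocyst level over the oocyte level was 0.0553, and 0.109 after median-ratio scaling. Uncalled estimates of HIST1H1B in blastocyst against morula (0.09) turned to -0.31 without morula B, -0.05 without blastocyst A and -0.03 without blastocyst C (range -0.31 to 0.36 over single libraries left out), and HIST1H1E (-1.0) to 0.04 with array weights, whose estimation stopped before convergence. The share of all genes called moved by over 1.5 times in 3 to 8 settings per comparison, for example in 2-cell against oocyte to 1.03% with no filter and 14.5% without the span, against 4.77%. A filter of 5 RPKM left no value for HIST1H1B and HIST1H1T. Deviations of 18 same-lettered pairs of consecutive stages correlated at -0.41 to 0.32, 8 of them over 0.1 and 6 below -0.1. Pairs of unlike letters were not compared, so whether letters pair samples was not tested. With the replicate block HIST1H1E in 8-cell against oocyte had an adjusted p of 0.0512 (log2 fold change 1.36), and no other call changed.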
